A study of Homo sapiens with 12 samples.

Results

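Phosphofructokinase commits glucose carbon to glycolysis by phosphorylating fructose 6-phosphate, and the genes described here encode its subunits and the enzymes that set its main activator. The members were chosen by name: the phosphofructokinase subunits PFKL (liver type), PFKM (muscle type) and PFKP (platelet type), the bifunctional enzymes PFKFB1, PFKFB2, PFKFB3 and PFKFB4, and the phosphatase TIGAR, 8 of the 60666 genes listed. Membership rests on the gene names and on no threshold of a measured value, although earlier results of these data were known when the group was chosen. Molidustat is an inhibitor of the prolyl hydroxylases that mark the alpha subunits of hypoxia-inducible factors (HIF) for degradation, and the comparison asks how transcripts respond when this pathway is activated in the presence of oxygen. The cells were Huh7, an established human hepatocellular carcinoma line, kept in medium with 25 mM glucose. They received 25 µM Molidustat or DMSO (the solvent) alone for 24 h or 48 h, with 3 replicate libraries in each of the 4 groups. All results come from this single line and dose, and whether the replicates were separate cultures or repeat extractions is described differently by the sources, so p-values measure the spread between these libraries, which may be technical.

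As background, the PFKFB proteins carry a kinase that makes fructose 2,6-bisphosphate, the strongest allosteric activator of phosphofructokinase, and a phosphatase that removes it. PFKFB3 has a high kinase to phosphatase ratio, PFKFB1 is the form typical of liver and muscle, PFKFB2 that of heart, and PFKFB4 that of testis. TIGAR breaks down the same metabolite and so favours the pentose phosphate pathway. PFKFB3 and PFKFB4 are known targets of HIF-1, whose core binding motif is spelled ACGTG or GCGTG.

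In these data, PFKFB4, PFKFB3 and PFKL stood higher in every Molidustat library than in any DMSO library of the same time point, and no other member did so. Of all genes tested, 2.2% had this pattern at both times (7.26% at 24 h, 9.96% at 48 h). Averaged over both time points, PFKFB4 rose 13.0-fold, PFKFB3 6.98-fold and PFKL 2.66-fold. In the main test (edgeR on all 12 libraries) PFKFB4 passed at each time point alone, and PFKFB3 and PFKL only in the mean of both. With 1 library left out, the mean of PFKL passed in 9 of 12 fits. The fold changes of PFKM, PFKFB2 and TIGAR did not pass the main test. Another tool, DESeq2, called PFKFB2 lower at 48 h, as it did 1.24% of all genes, and lost the call without 1 library. PFKP had no count in any library and PFKFB1 had 3 counts in all, so 6 of the 8 members could be tested.

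The promoter windows of the members are shown because the HIF core motif lies in several of them, whether or not the gene rose. RefSeq start sites (GRCh38.p14) gave 18 windows of 300 bases, from 250 bases before to 50 bases after the start, for 7 of the 8 members. ACGTG or GCGTG, read on both strands, was present in 9 of the 18 windows and in 6 members, while 48.4% of the 35116 promoter windows of all genes held either spelling. ACGTG alone was found in 21.4% of all windows, GCGTG alone in 36.5%, and the palindrome CACGTG, which contains ACGTG on both strands, in 7.26%. Below, 1 match per gene is in capitals with 12 bases on each side, 5′ to 3′ on the strand of the gene, and where a gene had both spellings the one with ACGTG was taken. For PFKM the capitals show ACGTG as it reads on the other strand.
PFKL: tgctcagggcccGCGTGacattgcacagg
PFKFB3: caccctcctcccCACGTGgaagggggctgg
PFKFB4: tgagttgggcatGCGTGgtcggaggccgg
PFKM: agatccagagatCACGTtagggtacacca
PFKP: ccacgagcgcctACGTGatgcccggcccg
TIGAR: ccttcggggatgACGTGcgaggccgcctc
The stretch of PFKL lies at chr21:44299877-44299905 on the plus strand, with the first capital at position -164 from the start site. That of PFKFB3 lies at chr10:6202812-6202841 on the plus strand, before a downstream start of the gene, with the first capital at -108. That of PFKFB4 lies at chr3:48556953-48556981 on the minus strand, at -166. The stretches of PFKM (chr12:48105347-48105375), PFKP (chr10:3069038-3069066) and TIGAR (chr12:4321130-4321158) are on the plus strand. Matches not printed are a GCGTG on the other strand at -168 from the upstream start of PFKFB3, and 3 GCGTG matches at -61, -19 and -13 from another start of PFKP. The stretch of PFKM lies in the windows of 2 of its starts. The windows of PFKFB1 held neither spelling. The letters thus occur in promoters of genes that rose (PFKL, PFKFB3, PFKFB4), of genes that did not pass the test (PFKM, TIGAR) and of a gene without counts (PFKP), and a match is a description, not a binding site.

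Depth and library quality bear on every value below. Counts on genes ranged from 2462623 to 4744982 in the DMSO 24 h libraries, from 2703897 to 8202125 in Molidustat 24 h, from 1499273 to 9179389 in DMSO 48 h and from 2312396 to 5122636 in Molidustat 48 h. DMSO 48 h replicate 2 stood apart. It was the shallowest library, reads outside annotated features took 50.4% of its listed reads (17.1 to 25.6% in the remaining 11), and its TMM scaling factor was 0.629 against 1.01 to 1.08. Where leaving it out moved a value of a member or a gene list strongly, the value without it is given as well. Levels are given as CPM, the count relative to a TMM-scaled library size of 1000000. Since the libraries are bulk, fewer cells with a transcript and less of it per cell cannot be told apart.

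The hepatic origin of the cells was checked by markers, which do not tell Huh7 from other hepatoma lines. All 11 hepatocyte and hepatoma markers had counts in every library, with AFP, the fetal serum protein of hepatoma cells, the most abundant in each. Markers of fibroblasts, endothelium, leukocytes and skeletal muscle summed to between 2.53 and 17.5 CPM per library, and VWF, CD3E and CKM were at 0 in all 12. By group these sums were 2.53 to 11.9 CPM in DMSO 24 h and 7.16 to 16.1 in Molidustat 24 h. At 48 h they were 4.26 to 11.57 CPM with DMSO and 11.58 to 17.5 with Molidustat, so that the 2 ranges nearly touched. The summed hepatocyte markers ranged from 13043 to 16041 CPM in DMSO 24 h, from 19536 to 23673 in Molidustat 24 h, from 9267 to 17522 in DMSO 48 h, lowest in replicate 2, and from 25378 to 30509 in Molidustat 48 h. The summed hepatocyte markers thus moved with treatment, as PFKL did. In the mean of both time points, 9 of the 11 hepatocyte markers had positive and 2 negative log2 fold changes. Called higher there were 3 of these markers (TF, AHSG and SERPINA1), where 0.96% of all genes tested were. Their part in the results for PFKL was not tested.

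**Figure D1:**
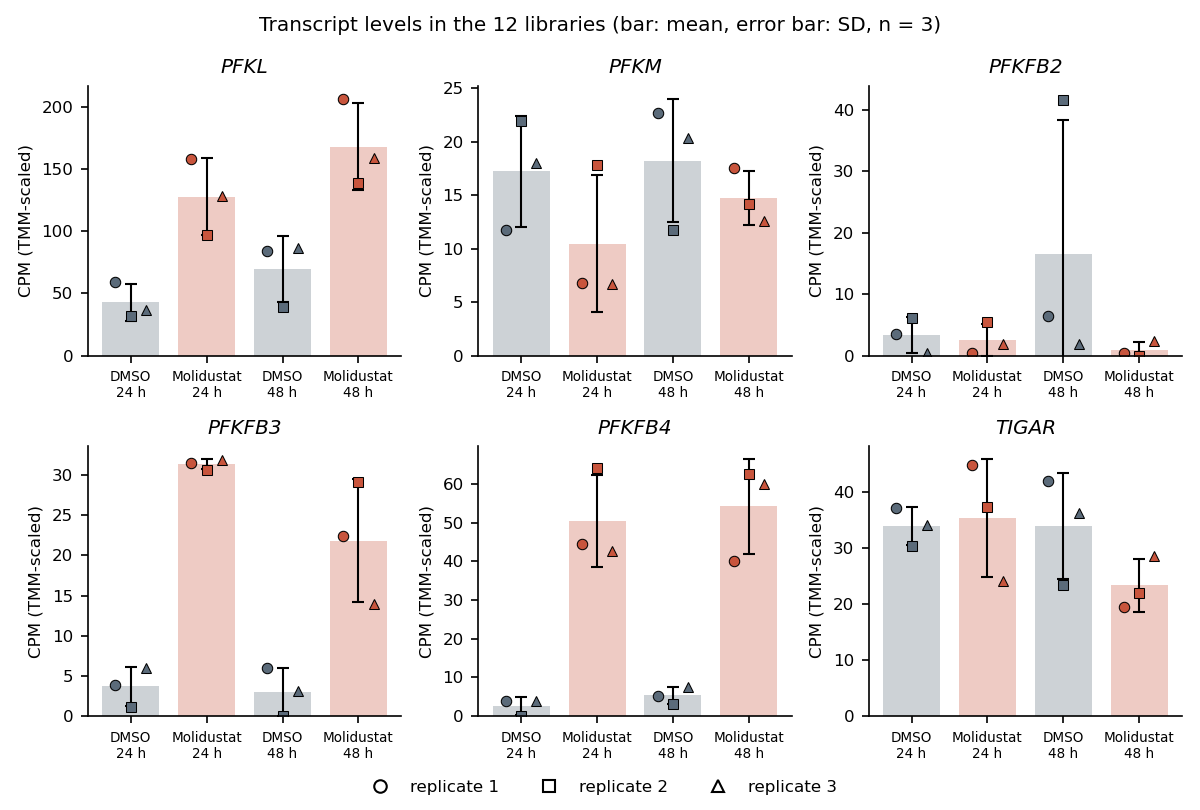
Levels of the 6 members that could be tested, in CPM on TMM-scaled library sizes (y axes start at 0 and differ between panels), in the 4 groups of 3 libraries. Bars are means, error bars SD (ending at the axis where they would pass below 0) and symbols the replicates; all Molidustat libraries lie above all DMSO libraries of their time point for PFKL, PFKFB3 and PFKFB4, and DMSO 48 h replicate 2 alone reaches 41.5 CPM for PFKFB2.

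PFKFB4 (ENSG00000114268; GRCh38 chromosome 3, 48517684 to 48562015, minus strand) had the largest rise among the members. Its levels were 3.90, 0 and 3.92 CPM in the DMSO 24 h libraries and 44.5, 64.1 and 42.7 CPM in the Molidustat 24 h libraries. At 48 h they were 5.15, 3.19 and 7.54 CPM with DMSO and 40.2, 62.6 and 59.9 CPM with Molidustat. The lowest treated library was thus several times above the highest control at either time. Behind these levels stood few control reads, from 0 to 73 counts per DMSO library against 124 to 528 per Molidustat library. The 0 belongs to DMSO 24 h replicate 2, where 3 counts, the limit that a count of 0 allows, would be 1.22 CPM of unscaled counts. All such limits cover counting error only.

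The log2 fold change of PFKFB4 was 4.16 at 24 h (17.9-fold, 95% interval 2.83 to 5.49, adjusted p = 0.00528, edgeR quasi-likelihood test with Benjamini-Hochberg adjustment over 14274 genes). At 48 h it was 3.24 (9.45-fold, 1.98 to 4.50, edgeR adjusted p = 0.0325). A gene is called where its adjusted p is below 0.05 and its log2 fold change exceeds 1 in size. By edgeR on all 12 libraries, PFKFB4 was the single member called at either time point taken alone, 1 of 6 tested. The share of all genes tested that was called higher was 0.231% at 24 h and 0.21% at 48 h. In the same edgeR fit no member was called lower at 24 h or 48 h, against 0% and 0.021% of the genes. DESeq2 did call PFKFB2 lower at 48 h, as described with that gene below. With single libraries removed in turn, the 48 h call was lost whenever any of the 6 Molidustat libraries was missing (edgeR adjusted p up to 0.149), while the log2 fold change at 24 h stayed between 3.68 and 4.50 and kept its call in all 12 repeats. The 48 h call was also lost with the replicate number as a block (3.30, edgeR adjusted p = 0.0755) and with the 48 h libraries fitted alone (3.24, edgeR adjusted p = 0.0569). Without DMSO 48 h replicate 2 the 48 h value was 3.07 (edgeR adjusted p = 0.0209).

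PFKFB3 (ENSG00000170525; chromosome 10, 6144934 to 6254644, plus strand), the form with the strongest kinase bias, had levels of 3.90, 1.16 and 5.99 CPM in the DMSO 24 h libraries. The Molidustat 24 h libraries lay close together at 31.5, 30.7 and 31.9 CPM, a mean of 31.4 ± 0.619 CPM (SD, n = 3). At 48 h the DMSO libraries had 5.96, 0 and 3.10 CPM and the Molidustat libraries 22.5, 29.2 and 13.9 CPM. The groups did not overlap at either time, and the 3 Molidustat libraries of 48 h all lay below those of 24 h. The log2 fold change was 3.03 at 24 h (95% interval 1.64 to 4.42, edgeR adjusted p = 0.0897) and 2.58 at 48 h (1.19 to 3.96, edgeR adjusted p = 0.157), so neither time point passed on its own. The mean of both did, at 2.80 (SE 0.46, edgeR adjusted p = 0.00515). Without DMSO 48 h replicate 2, which has no PFKFB3 count, the 24 h comparison was called (3.03, edgeR adjusted p = 0.00424, where 0.728% of genes were called higher) and the 48 h comparison was not (2.25, edgeR adjusted p = 0.131, against 0.315% of genes called higher). Without DMSO 48 h replicate 1 in its place, the 48 h comparison was just called (3.24, edgeR adjusted p = 0.0449). In that fit 0.368% of genes were called higher and 1.82% lower at 48 h.

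PFKL (ENSG00000141959; chromosome 21, 44300051 to 44327376, plus strand), the liver-type subunit, was the most abundant member per length in every group. Its levels were 59.5, 32.0 and 36.8 CPM with DMSO and 158.5, 96.6 and 128.4 CPM with Molidustat at 24 h. At 48 h they were 84.0, 39.4 and 86.5 CPM with DMSO and 206.5, 139.0 and 158.8 CPM with Molidustat. Every treated library was above every control of its time, and even the highest DMSO 48 h library stayed below the lowest Molidustat 24 h library. The log2 fold change was 1.58 at 24 h (95% interval 0.79 to 2.36, edgeR adjusted p = 0.139), 1.24 at 48 h (0.47 to 2.02, edgeR adjusted p = 0.203) and 1.41 in the mean (SE 0.26, edgeR adjusted p = 0.0118). Removal of DMSO 24 h replicate 2, DMSO 24 h replicate 3 or Molidustat 48 h replicate 1 cost the mean its call, with edgeR adjusted p = 0.0615, 0.0535 and 0.0529, and removal of any other library did not. Without DMSO 48 h replicate 2, PFKL was called at 24 h (1.58, edgeR adjusted p = 0.00766) and not at 48 h (0.97, edgeR adjusted p = 0.386).

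In the mean of both time points, built from the same libraries and so no further evidence, 3 of the 6 tested members were called higher where 0.96% of all genes tested were, and none was called lower where 0.0701% were. Groups that did not overlap, with Molidustat higher, were found for the same 3 members at both times, against the 2.2% of genes given above. DESeq2, the tool of the study's methods, called PFKL, PFKFB3 and PFKFB4 higher at either time on the same 12 libraries, where 0.932% of all genes passed it as higher at 24 h and 1.2% at 48 h.

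PFKM (ENSG00000152556; chromosome 12, 48105139 to 48146404, plus strand), the muscle-type subunit, had no call in any direction. Its levels were 11.7, 22.0 and 18.0 CPM with DMSO and 6.81, 17.8 and 6.73 CPM with Molidustat at 24 h. At 48 h they were 22.6, 11.7 and 20.4 CPM with DMSO and 17.5, 14.2 and 12.6 CPM with Molidustat. The groups overlapped at both times. The log2 fold change was -0.69 at 24 h (95% interval -1.71 to 0.33, edgeR adjusted p = 0.999) and -0.34 at 48 h (-1.36 to 0.68, edgeR adjusted p = 0.827). With 1 library left out it ranged from -1.34 (without Molidustat 24 h replicate 2) to -0.46 (without Molidustat 24 h replicate 3) at 24 h, and from -0.56 (without DMSO 48 h replicate 2) to -0.16 (without DMSO 48 h replicate 1) at 48 h, with no call.

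PFKFB2 (ENSG00000123836; chromosome 1, 207034366 to 207081024, plus strand), the heart form, was near the limit of these libraries, with 208 counts in all. Its levels were 3.44, 6.16 and 0.413 CPM with DMSO and 0.359, 5.46 and 1.92 CPM with Molidustat at 24 h. At 48 h they were 6.37, 41.5 and 1.86 CPM with DMSO and 0.449, 0 and 2.44 CPM with Molidustat. The value of 41.5 CPM, 39 counts in DMSO 48 h replicate 2, was far above the highest of the other 11 libraries (6.37 CPM) and made up much of the group difference. With it, the log2 fold change at 48 h was -3.85 (95% interval -6.79 to -0.91, edgeR adjusted p = 0.241), and without it -1.97 (edgeR adjusted p = 0.902). Leaving out other libraries moved the value as far as -5.67 (without Molidustat 48 h replicate 3, edgeR adjusted p = 0.493), also with no call. DESeq2 called PFKFB2 lower at 48 h (-4.09, adjusted p = 0.0448), where it called 1.24% of all genes lower. It lost the call without DMSO 48 h replicate 2 (adjusted p = 0.895). YOD1, a gene on the opposite strand within PFKFB2, was also highest in DMSO 48 h replicate 2 (80.9 CPM against 13.8 to 43.3 in the other 11).

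TIGAR (ENSG00000078237; chromosome 12, 4307763 to 4360028, plus strand) had levels of 37.2, 30.4 and 34.1 CPM with DMSO and 44.8, 37.3 and 24.0 CPM with Molidustat at 24 h. At 48 h they were 42.0, 23.4 and 36.3 CPM with DMSO and 19.5, 21.9 and 28.6 CPM with Molidustat. The groups overlapped at both times, at 48 h only through DMSO replicate 2 (log2 fold change without it -0.76). The log2 fold change was 0.06 at 24 h (95% interval -0.68 to 0.80, edgeR adjusted p = 0.999) and -0.56 at 48 h (-1.31 to 0.19, edgeR adjusted p = 0.542). A change as large as that of PFKFB4 or PFKFB3 lies outside these intervals. TIGAR shares exons with a read-through gene on the same strand (ENSG00000285901, 1570 counts in all and 0 in DMSO 48 h replicate 2), so the division of reads between them is uncertain.

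PFKP (ENSG00000067057; chromosome 10, 3066333 to 3137718, plus strand) had 0 of 56468708 counts over all libraries, which allows a level of up to 0.0531 CPM of unscaled counts. The lncRNA gene ENSG00000278419 (3134566 to 3145166), also at 0, overlaps its 3′ end on the same strand, where reads of 3′ libraries would fall and may have been assigned to neither gene, and its part in the 0 was not tested. Of 19928 protein-coding genes listed, 4637 likewise had no count anywhere. PFKFB1 (ENSG00000158571; chromosome X, 54932961 to 54998534, minus strand) had 1 count in DMSO 48 h replicate 1 and 2 counts in replicate 3, and none in the other libraries. The form typical of liver was thus barely detectable in this hepatoma line at this depth, while the genes next to it, MAGED2 and APEX2, had 6423 and 952 counts.

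**Figure D2:**
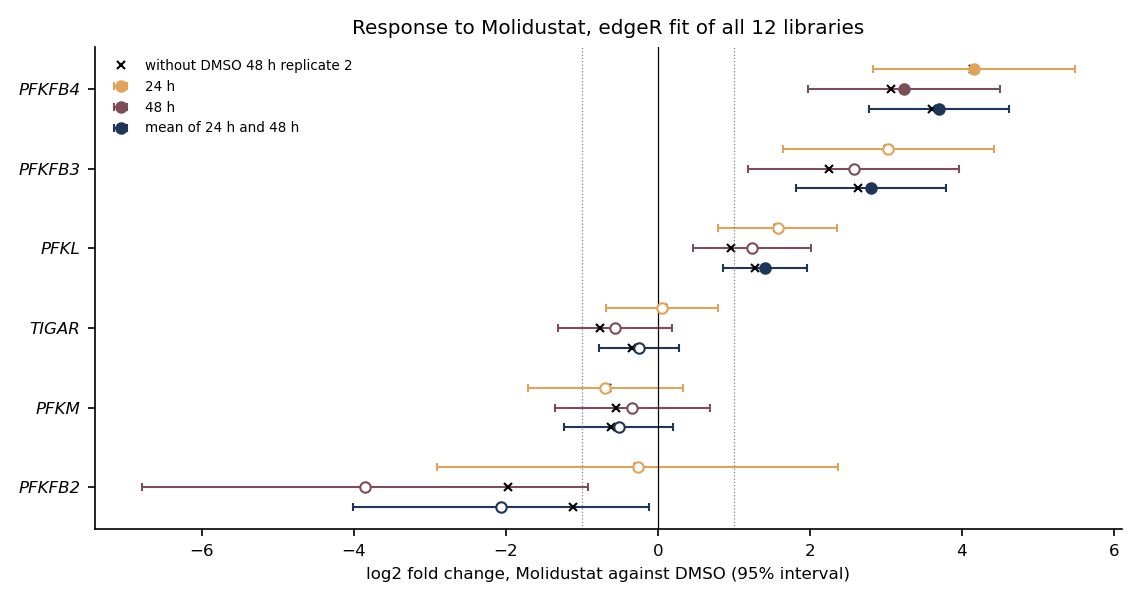
Log2 fold change of Molidustat against DMSO (x axis) for the 6 members tested, at 24 h, at 48 h and in their mean, with 95% intervals from the edgeR fit of 12 libraries. Filled points were called, dotted lines mark the fold threshold and crosses show the value without DMSO 48 h replicate 2, which moves PFKFB2 at 48 h from -3.85 to -1.97.

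A difference between the responses at 48 h and at 24 h was not detectable for any member. The change of the log2 fold change from 24 h to 48 h was -0.92 for PFKFB4 (SE 0.81), -0.46 for PFKFB3, -0.33 for PFKL, 0.35 for PFKM, -0.62 for TIGAR and -3.58 for PFKFB2. These were, with DMSO 48 h replicate 2 left out, -1.08, -0.78, -0.62, 0.11, -0.82 and -1.70 in the same order, and none was called. With all 12 libraries, the edgeR adjusted p lay between 0.781 and 0.948 for these 6, and edgeR called 0 of all 14274 genes (0%) in either direction (968 at an unadjusted p under 0.05), where DESeq2 called 2 higher and 6 lower. Ordered by level, PFKL and PFKFB4 were highest with Molidustat at 48 h, then with Molidustat at 24 h, DMSO at 48 h and DMSO at 24 h, and in both orders only the Molidustat 24 h and DMSO 48 h groups were neighbours without overlap. For PFKL and PFKFB4 the overlap of the DMSO groups rested on DMSO 48 h replicate 2, and without it the 2 remaining DMSO 48 h libraries lay above all of DMSO 24 h. For PFKFB3 the order was Molidustat 24 h, Molidustat 48 h, DMSO 24 h, DMSO 48 h, with no overlap between the first and the second or between the second and the third. The last 2 changed places when DMSO 48 h replicate 2 was left out, with 4.53 CPM in the 2 remaining DMSO 48 h libraries. For PFKM, PFKFB2 and TIGAR all neighbouring groups overlapped. Without that library, TIGAR was highest in DMSO 48 h (39.1 CPM). The group next below DMSO 24 h was then Molidustat 48 h, and these groups did not overlap with or without that library. For groups at different time points, here and above, the share of all genes without overlap is not given, so these orders are descriptions only.

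The mix of isozymes is described by shares, without a test. PFKL made up 70.0 ± 12.4% of all phosphofructokinase counts with DMSO at 24 h (SD, n = 3 as for all shares), 91.8 ± 6.39% with Molidustat at 24 h, 78.9 ± 1.94% with DMSO at 48 h and 91.9 ± 0.987% with Molidustat at 48 h, the remainder being PFKM. The lowest Molidustat share was 84.4% at 24 h and 90.8% at 48 h, above the highest DMSO shares of 83.5% and 80.9%. Divided by transcript length the 4 means were 71.2, 92.2, 79.9 and 92.3%. Summed over its genes, phosphofructokinase stood at 59.95 ± 9.74 CPM with DMSO and 138.3 ± 25.5 CPM with Molidustat at 24 h, and at 88.2 ± 32.1 and 182.8 ± 36.8 CPM at 48 h. PFKP enters these shares and sums with 0 counts, and any PFKP reads assigned to neither gene, as described above, would be missing from them.

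Among the PFKFB counts, PFKFB4 held 24.2 ± 21.0% with DMSO and 59.3 ± 4.18% with Molidustat at 24 h, and 31.9 ± 26.2% and 70.2 ± 7.62% at 48 h. Without DMSO 48 h replicate 2 the control share at 48 h was 44.3% in the 2 other libraries, and its highest value of 59.3% stayed below the lowest treated one of 63.7%. PFKFB3 held 36.2 ± 21.1% with DMSO and 37.9 ± 6.29% with Molidustat at 24 h, and 19.4 ± 17.5% and 28.5 ± 9.12% at 48 h. The DMSO 24 h shares ran from 15.8% (replicate 2, with 3 PFKFB3 counts) to 58.0%, on both sides of the Molidustat shares (30.6 to 41.7%). The control share at 48 h was 29.1% without DMSO 48 h replicate 2, which had no PFKFB3 count, and the order of the 2 groups turned round. The control shares rest on few reads, from 19 to 130 PFKFB counts per DMSO library against 213 to 826 with Molidustat. The summed PFKFB level was 9.63 ± 2.06 CPM with DMSO and 84.4 ± 13.8 CPM with Molidustat at 24 h. At 48 h it was 25.0 ± 17.2 and 77.1 ± 14.3 CPM, the control mean including the 41.5 CPM of PFKFB2 in replicate 2. The 2 other DMSO 48 h libraries had a mean sum of 15.2 CPM (12.7 and 17.6).

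Compared per kilobase of the canonical transcript, the treated cells held 43.98 CPM per kb of PFKL, 14.4 of PFKFB4, 7.0 of PFKFB3, 4.31 of TIGAR, 3.39 of PFKM and 0.365 of PFKFB2 at 24 h. With DMSO at 24 h the levels per kb were 14.7 for PFKL, 5.57 for PFKM, 4.13 for TIGAR, 0.822 for PFKFB3, 0.746 for PFKFB4 and 0.472 for PFKFB2. PFKFB4 thus went from the fifth to the second place among the 6, on the scale of group means, and its DMSO levels overlapped those of PFKFB3 and PFKFB2. The libraries were made from transcript 3′ ends, for which counts depend less on length than this scale assumes.

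The genes around phosphofructokinase were described by lists. Of 12 genes of enzymes that make or use fructose phosphates or, as TPI1, act on the next products, 10 could be tested. With all 12 libraries, 1 passed edgeR as higher at 24 h (0.231% of all genes), 0 at 48 h (0.21%) and 3 in the mean (0.96%). None was called lower, and the median log2 fold change in the mean was 0.72 against -0.01 over all genes tested. When DMSO 48 h replicate 2 was left out, the higher calls came to 4 (0.728% of all genes), 2 (0.315%) and 5 (1.25%) in the same order, and the median in the mean was 1.13. DESeq2 on all 12 libraries called 2, 3 and 3 higher and none lower, against 0.932%, 1.2% and 1.79% of all genes called higher. Called in the mean with all libraries were the aldolases ALDOC (3.66, edgeR adjusted p = 0.000468) and ALDOA (1.48, edgeR adjusted p = 0.0372), which split fructose 1,6-bisphosphate, and triose phosphate isomerase TPI1 (1.67, edgeR adjusted p = 0.00458). GPI and MPI, which make fructose 6-phosphate from glucose 6-phosphate and mannose 6-phosphate, joined them without DMSO 48 h replicate 2.

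The values of GPI depended on a single library. Its levels were 271.5, 817.0 and 857.3 CPM with DMSO and 2032, 2743 and 1569 CPM with Molidustat at 24 h. At 48 h they were 910.5, 6981 and 738.0 CPM with DMSO and 2028, 1362 and 1303 CPM with Molidustat. The treated libraries were above all controls of their time except DMSO 48 h replicate 2, which was the highest of all 12. With it, the log2 fold change of GPI was 1.71 at 24 h (edgeR adjusted p = 0.872), -0.88 at 48 h (edgeR adjusted p = 0.650) and 0.41 in the mean (edgeR adjusted p = 0.805). Without it, the values were 1.72 (edgeR adjusted p = 0.0207), 0.91 (edgeR adjusted p = 0.664) and 1.32 (edgeR adjusted p = 0.0103). FBP1, which reverses the step of phosphofructokinase, had 1.08 in the mean (SE 1.06, edgeR adjusted p = 0.753) and 1.01 without that library (SE 1.12, edgeR adjusted p = 0.811).

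Of 24 other glycolysis genes, which include those aldolases, GPI and TPI1, 15 could be tested. Higher calls numbered 4 for the 24 h comparison, 1 for 48 h and 11 for the mean, with no lower call in these comparisons, where 0.231%, 0.21% and 0.96% of all genes were called higher. The numbers without DMSO 48 h replicate 2 were 12, 5 and 12 of 16 tested, against 0.728%, 0.315% and 1.25% of all genes. DESeq2 on the 12 libraries called 10 at 24 h and 11 at 48 h, against 0.932% and 1.2% of all genes. The median log2 fold change was 1.71 at 24 h, 1.54 at 48 h and 1.57 in the mean, and 14 of the 15 values were positive at 24 h and 12 at 48 h. The smallest p in the mean belonged to PGK1, which makes ATP (2.39, edgeR adjusted p = 6.9e-05), LDHA, which makes lactate (2.17, edgeR adjusted p = 0.000351), ALDOC and the glucose transporter SLC2A1 (1.81, edgeR adjusted p = 0.00121). The 2.66-fold rise of PFKL corresponds to 1.41 on the same scale, close to the median of this list, while PFKFB3 and PFKFB4 lay above it at 2.80 and 3.70. ENO2, at 0 in the DMSO 24 h libraries, was at least 23.6-fold higher with Molidustat at 24 h against a floor of 3 counts over the group, and the median at 24 h was the same with that bound in place of the fitted value.

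For the pentose phosphate pathway, toward which TIGAR is known to direct glucose, all 8 genes could be tested. At 24 h, at 48 h and in the mean, 0 were called by edgeR (1, 1 and 1 at an unadjusted p under 0.05) and 0 by DESeq2. With 0.231%, 0.21% and 0.96% of all genes called higher by edgeR, a count of 0 among so few genes is near the background. The median log2 fold change was -0.01, -0.05 and -0.02. Leaving out DMSO 48 h replicate 2 gave again 0 calls in each, with medians of 0.01, -0.18 and -0.08. Of 11 genes for AMPK subunits, AKT kinases and PDPK1, which act on PFKFB proteins by phosphorylation, 9 could be tested, and 0 were called by edgeR (0 at 24 h and 2 at 48 h at an unadjusted p under 0.05) or by DESeq2, again near the share of all genes (0.231% and 0.21% by edgeR). The median was -0.37 at 24 h and 0.03 at 48 h (-0.35 and -0.10 without that library, also with 0 calls).

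As a reference for the pathway the drug targets, 15 known HIF target genes outside glycolysis were listed and 14 could be tested. All 14 had positive log2 fold changes at both times. Higher calls numbered 7 for the 24 h comparison, 5 for 48 h and 10 for the mean (0.231%, 0.21% and 0.96% of all genes), and the median was 2.33 at 24 h and 1.70 at 48 h. All 15 could be tested and were positive without DMSO 48 h replicate 2, with 10, 5 and 10 higher calls (0.728%, 0.315% and 1.25% of all genes) and medians of 2.52 at 24 h and 2.01 at 48 h. Among the genes of smallest p in the mean were the mitophagy receptors BNIP3 (2.74, edgeR adjusted p = 1.36e-05) and BNIP3L (2.50, edgeR adjusted p = 0.000131), and the hormone gene EPO, which was at 0 in the DMSO 24 h libraries and at 23.8 CPM with Molidustat. PFKFB4 and PFKFB3 lay above the 24 h median of this list, and PFKL below it.

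Across the 12 libraries the members that rose followed each other. The Pearson correlation of log2 CPM was 0.885 between PFKL and PFKFB4, 0.834 between PFKFB3 and PFKFB4 and 0.807 between PFKL and PFKFB3, and 0.883, 0.935 and 0.800 without DMSO 48 h replicate 2. PFKFB2 and PFKFB3 ran in opposite directions (-0.723), less so without that library (-0.485). These are descriptions over libraries that share the 2 treatments, the 2 time points and their depth. The members that rose were singled out by their response in the same libraries, so the correlations among them follow in part from that choice.

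Of all genes tested, those most like PFKL were ESPN (r = 0.944), BNIP3L (0.942) and DDIT4 (0.940). Most like PFKFB3 were PLOD2, a collagen lysyl hydroxylase (0.966), EDARADD (0.960) and the pseudogene SCDP1 (0.959). PFKFB4 was closest to the pseudogene ACSL3P1 (0.980), the secreted glycoprotein gene STC2 (0.975) and ENSG00000279689 (0.955). The pseudogenes can take reads of their parent genes, and their own levels are uncertain. PFKFB2 was closest to TP53BP1 (0.952), POLR3A (0.917) and CASC3 (0.912), PFKM to FBRS (0.864), LRRC45 (0.856) and TYW1 (0.847), and TIGAR to RAP1GAP2 (0.923), ZNF565 (0.896) and SEPHS1 (0.893). BNIP3L and DDIT4, both near PFKL, are on the list of HIF targets used here, and no other of these 18 genes is. That list is a selection, so a gene absent from it may still be a HIF target.

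The genes beside the members gave few calls. Of 29 neighbouring genes, 14 could be tested. Of these, 0 were called by edgeR in any of the comparisons (1 at 24 h, 2 at 48 h and 2 in the mean at an unadjusted p under 0.05), where 0.231%, 0.21% and 0.96% of all genes were called higher, so that 0 of 14 is near the background. DESeq2 called C4BPB, which follows PFKFB2, higher at 48 h (1.81, adjusted p = 0.0269) and not without DMSO 48 h replicate 2 (1.64, adjusted p = 0.114). SHISA5, which follows PFKFB4 on chromosome 3 at a distance of 12858 bases, had a log2 fold change of -0.12 (24 h) and 0.36 (48 h), and RBM17, 27477 bases from PFKFB3, had -0.22 and 0.05. SENP1, which overlaps the start of PFKM on the opposite strand, had 0.55 and -0.24. No gene with a count overlapped PFKL, PFKFB3 or PFKFB4. PITRM1, whose annotated span begins 10 bases beyond that of PFKP, on the opposite strand, had 839 counts where PFKP had none.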

How the data were processed

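The transcriptome of 12 Huh7 libraries was measured from transcript 3′ ends. The authors aligned reads with STAR 2.7.9a to GRCh38 and counted them with HTSeq 0.11.2, and deposited whole-number read counts without normalization. The annotation release, strand setting and use of molecular identifiers are not given in the sources used here, and where strand is not used, reads of overlapping antisense genes cannot be told apart. Lines that name no gene were left out of library sizes. Names and coordinates came from GENCODE 44. Groups were taken from the sample labels.

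Counts were fitted in R 4.3.3 with edgeR 4.0.16 (TMM, filterByExpr with a minimum count of 10 and a minimum total of 15, quasi-likelihood test on all 12 libraries), which kept 14274 of 28430 genes with a count. P-values were adjusted by Benjamini-Hochberg over all genes tested. DESeq2 1.42.0 and limma 3.58.1 served as alternatives. Correlations used log2 CPM with a prior count of 2. The fit was tested on simulated data, and no result given here rests on that test. Replicates differed by more than sampling noise (chi-square per degree of freedom 10.3 to 127.5), so none was taken for a repeat deposit. The members, lists and tests were chosen with earlier results of these data known. Named genes were the 8 members, called genes of the lists (at most the 4 of smallest p in the mean), the 3 genes most like each member and neighbouring genes, and GPI, MPI, FBP1, ENO2 and the markers named were added after their values were seen. Results for some genes and for 1 further list of genes are not reported here.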

Additional observations from a re-analysis of the deposited data

How the results depend on the processing

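Of the members' values under other settings, 463 kept their direction and side of the threshold, 20 gained a call, 11 lost one and 6 changed sign. At 24 h, where 1 member was called higher, DESeq2, no filter, limma-voom with quality weights and DESeq2 without DMSO 48 h replicate 2 (an alternative chosen after seeing the data) gave 3, thinning to the smallest library and fitting each time point alone 2, a minimum of 10 counts in every library 0, where PFKFB2, PFKFB3 and PFKFB4 were no longer tested, and leaving out 1 library 1 to 3. At 48 h, where 1 was called higher, DESeq2 gave 3, no filter, limma-voom and DESeq2 without that library 2, the strict minimum and each time point alone 0, and leaving out 1 library 0 to 2. PFKFB2 was called lower at 48 h by DESeq2 and without a filter (1 against 0). In the mean, the strict minimum left 1 of 3 calls, with 1.05% of all genes called higher against 0.96%. These counts stand beside different shares of all genes called. Called higher at 24 h and 48 h were 0.231% and 0.21% of all genes, 0.932% and 1.2% by DESeq2, 0.366% and 0.542% without a filter, 0.448% and 1.71% by limma-voom, 1.33% and 0.97% by DESeq2 without that library, 0.307% and 0.325% when thinned, 0.441% and 0.0535% with each time point alone, and 0.199% and 0.185% under the strict minimum. With 1 library left out the shares were 0.131 to 0.728% and 0.0874 to 0.368%. Called lower at 48 h were 0.021% of all genes, 1.24% by DESeq2, 2.15% without a filter, 0.238% by limma-voom and 0.157% by DESeq2 without that library. With 1 library left out the share called lower at 48 h was 0 to 1.82%.

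The shares above also apply to the listed genes. The numbers here leave out the marker lists and count in a further list. Called higher at 24 h were 11, and 22 by DESeq2, 19 without a filter, 6 under the strict minimum and 17 by limma-voom. DESeq2 without DMSO 48 h replicate 2 gave 23, and leaving out 1 library 5 to 23. At 48 h the number was 6, and 19, 18, 3, 23 and 20 in the same order, 1 with each time point alone and 2 to 10 with 1 library left out. Called lower at 48 h were 0, and 1, 2, 1 and 1 by DESeq2, without a filter, by limma-voom and by DESeq2 without that library, and 0 to 2 with 1 library left out. In the mean, 22 were higher (0.96% of all genes) and 13 under the strict minimum (1.05%). Lower in the mean were 1 (0.0701% of all genes), 0 when thinned (0.0527%) and 0 to 1 with 1 library left out (0.00673 to 0.125%). The difference between time points had 0 lower calls (0% of all genes), and 2 without a filter (1.11%). Divided by length, the PFKFB4 share with Molidustat at 24 h was 65.7% in place of 59.3%.

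Signs changed for TIGAR at 24 h (-0.030 by limma-voom, -0.15 to 0.26 with 1 library left out), PFKFB2 at 24 h (-1.41 to 0.49) and PFKFB3 in the difference between time points (-0.98 to 0.21 with 1 library left out, the latter without DMSO 48 h replicate 1). The cause was not tested. Replicate numbers did not pair the libraries (correlation of deviations from -0.05 to 0.12 for same-numbered libraries); with the replicate block PFKFB4 at 48 h was not called (3.30, edgeR adjusted p = 0.0755, 0 members), and the block changed no other call of a member. Total-count scaling moved the median of all genes at 48 h to 0.13. PFKFB2 had 208 counts in all, PFKFB1 3 and PFKP 0, and the part of depth in this was not tested.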
